A study of Homo sapiens with 6 samples.

Results

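Ribosomal protein pseudogenes were read library by library in RNA bound to tagged ribosomes. The members are the genes whose symbol joins the name of a ribosomal protein gene with P and a number, such as RPS2P5. Of the 16834 genes in the deposited table, 75 symbols matched. One of them, RPS19BP1, is a protein-coding gene for a binding partner of RPS19 and is given on its own, which leaves 74 pseudogenes of 36 parent genes, 50 of large subunit and 24 of small subunit proteins. RNA came from 6 immunoprecipitations (IPs), 3 per tag, of unsynchronized HEK293-T Flp-In cells, a human embryonic kidney line that carries a single inserted copy of ccTaggedRP. Both groups share this line and construct, a CAG-driven bicistronic cassette with mouse RPL10a, whose 2 products are separated during translation. The Flag-IPs recover 3xFlag-RPL10a-hCdt(30–120), which is predicted in G0/G1, and the HA-IPs recover 3xHA-RPL10a-hGem(1–110), which is predicted in G2/M. The comparison asks which transcripts differ between ribosomes carrying either protein. The labels do not say whether the 3 replicates of a group were separate cultures, so p-values measure only the spread between these libraries.

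Ribosomal protein mRNAs are short, abundant and present in every dividing cell, and they have been copied back into the genome many times by retrotransposition. The resulting processed pseudogenes lack introns, resemble the mature mRNA of the parent, and mostly have no known protein product. A sequencing read from such a copy can match parent and pseudogene alike where their bases are equal. How the counting handled such reads, and whether it used the strand, is not given in the sources used here, so each level below is uncertain by the reads that can be shared with the parent or with an overlapping gene.

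The likeness to the parent is shown by 120 bases of the coding part of the parent mRNA, chosen without gaps where the pair differed most, for RPS3AP26, a called member, and RPL23AP7, the uncalled member with the highest level. Capitals mark bases of the pseudogene that differ from the parent. The RPS3AP26 stretch lies at chr7:98385983-98386102 (GRCh38, minus strand, within an intron of BAIAP2L1 on the same strand), and the RPS3A bases lie in exons between positions 151103003 and 151104219 of chromosome 4 (plus strand). The RPL23AP7 stretch lies at chr22:50798975-50799094 (plus strand, overlapping an exon of a long non-coding RNA on the same strand), and the RPL23A bases lie in exons between positions 28722835 and 28723625 of chromosome 17 (plus strand).
RPS3A: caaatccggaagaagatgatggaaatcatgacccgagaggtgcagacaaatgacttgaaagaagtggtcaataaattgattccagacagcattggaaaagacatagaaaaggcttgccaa
RPS3AP26: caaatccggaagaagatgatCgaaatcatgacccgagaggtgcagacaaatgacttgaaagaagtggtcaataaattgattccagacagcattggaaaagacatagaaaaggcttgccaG
RPL23A: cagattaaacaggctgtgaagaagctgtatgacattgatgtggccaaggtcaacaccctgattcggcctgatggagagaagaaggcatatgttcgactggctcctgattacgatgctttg
RPL23AP7: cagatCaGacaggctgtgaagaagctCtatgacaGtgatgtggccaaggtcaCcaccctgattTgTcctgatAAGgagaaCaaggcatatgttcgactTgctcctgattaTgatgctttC

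Within these stretches RPS3AP26 differed from the parent at 2 bases and RPL23AP7 at 14. Over all aligned bases, RPS2P5 was 98.8% identical to RPS2, RPLP0P6 98.8% to RPLP0, RPS3AP26 99.5% to RPS3A and RPL23AP7 91.7% to RPL23A. The table gives RPL23AP7 the Ensembl identifier ENSG00000184319, which GENCODE release 44 names RPL23AP82. Across the 74 pseudogenes identity ran from 75.1% to 100% with a median of 97.6%.

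Total reads on the listed genes lay between 23174532 and 44134833 per library, and every normalized count was a whole multiple of 1 read. All 6 markers of HEK293 cells that were looked for were listed, and the median of their log2 fold changes was -0.02. Only 1 of them was called, PAX2, which was higher in the Flag-IPs (log2 fold change -0.79, limma adjusted p = 0.0467). Heart muscle markers, which are not typical of a kidney line, were also present: 20 of 24 were listed, and all 20 were called higher in the Flag-IPs, the median on the log2 scale being -4.21. MYH7, the slow heart myosin, was at 83895 normalized counts in Flag-IP replicate 1 and at 478 in HA-IP replicate 2, and of the 20 only CSRP3 was listed at 0, in HA-IP replicates 1 and 2. Their summed share of reads was 0.515%, 0.368% and 0.235% in Flag-IP replicates 1, 2 and 3, and 0.00977%, 0.00639% and 0.0475% in the HA-IPs. The lists for fibroblasts (5 of 7 listed genes), endothelium (4 of 5) and blood (1 of 1) also held genes called higher in the Flag-IPs. HA-IP replicate 3 stood above the other HA-IPs in the heart muscle list. It was also the highest in the fibroblast list, at 0.0127% of reads against 0.0108% and 0.0109% in HA-IP replicates 1 and 2. In the endothelium list it was the lowest, but that list held only 110, 62 and 55 reads in HA-IP replicates 1 to 3. The shares of replicates 2 and 3 were nearly equal there (0.000195% and 0.000191%).

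Of the 74 pseudogenes, 33 (44.6%) were higher in the Flag-IPs at a Benjamini-Hochberg adjusted p of at most 0.05 (limma, two-sided, log2 of normalized count + 1), where 7.1% of all genes were. None was called higher in the HA-IPs, where 5.79% of all genes were. By level, that share was 8.09% of genes with a mean of at least 100, 0.328% at 20 to 100 and 0.159% under 20. Of the members, 11 reached a mean of 100, 41 lay at 20 to 100 and 22 under 20, so 5.79% is not a like background for most. The unadjusted p was under 0.05 for 43 members, and edgeR and DESeq2 on the recovered reads also called 0 members higher in the HA-IPs. The median log2 fold change (HA-IP over Flag-IP) was -1.07 for the members and -0.005 for all genes, and 64 of 74 members had a value below 0. Of the called members, 31 changed by -1 or lower on the log2 scale, while 2.66% of all genes were called with such a change. The number of calls ranged from 20 without HA-IP replicate 1 to 36 without HA-IP replicate 3, and 19 members were called whichever library was left out. Without the trend of the variance on the mean, limma called 3 members: RPLP0P6, RPL24P4 and RPSAP15. Over all genes, 1.08% were then called higher in the Flag-IPs. In bulk samples, fewer cells that hold an RNA and less of it per cell cannot be told apart.

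Every listed gene had at least 10 reads in at least 3 libraries, the filter that the authors set. A gene with reads in the Flag-IPs alone passes this filter and must differ, so the counts above describe the listed members and not the family at large: of 1589 GENCODE genes whose names fit the pattern, 87 were in the table. For 10 members no HA-IP reached 10 reads, and 9 of these were called (90%), a share near the 89.4% of all genes with as few reads there. For another 21 members 1 or 2 HA-IPs did. The other 43 had at least 10 reads in all 3 HA-IPs, and 12 of them were called. Among the 39 members with at least 10 reads in every library, 12 were called in the Flag-IP direction (30.8%), while the share was 6.15% over all genes with as many reads, and their median log2 fold change was -0.47. This smaller set was chosen after the data were seen. Of the 11 members with at least 10 reads in fewer than 3 Flag-IPs, 0 were called by limma, edgeR or DESeq2, and 2 had an unadjusted p under 0.05 in limma.

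**Figure D1:**
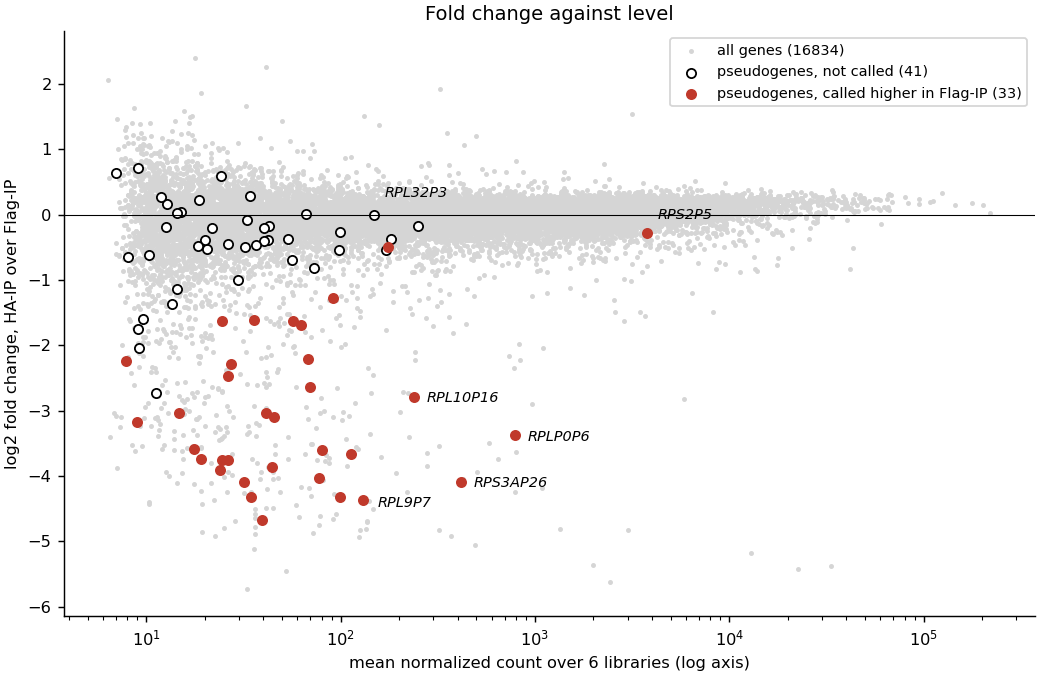
Log2 fold change, HA-IP over Flag-IP (y axis), against the mean normalized count over 6 libraries (x axis, log scale). Grey points are all 16834 genes, red points the 33 pseudogenes called higher in the Flag-IPs and open circles the 41 that were not called, and called members reach -4.68, while RPS2P5, at a mean of 3762, lies near 0.

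RPS2P5, a copy of the gene for the small subunit protein RPS2 that lies within an intron of TAOK3 on the other strand, had the highest level and carried 43.9% of the summed mean of all members. Its normalized counts were 4009, 3968 and 4412 in Flag-IP replicates 1 to 3, against 3453, 3555 and 3177 in the HA-IPs. The groups did not overlap, and the log2 fold change was -0.28 ± 0.06 (SE, n = 3 per group, limma adjusted p = 0.0121). With trends of GC content and length removed it was -0.10 and was not called (limma adjusted p = 0.309), and the call was also lost without HA-IP replicate 3. RPS2 itself had a log2 fold change of -0.11 and was not called (limma adjusted p = 0.518).

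RPLP0P6 derives from the gene for RPLP0, the protein at the base of the ribosomal stalk, and lies within an intron of LINC02613 on the other strand. Its normalized counts were 2121, 1338 and 874 in the Flag-IPs, then 104, 103 and 201 in the HA-IPs. Every Flag-IP lay above every HA-IP, with a mean of 1444 ± 629.9 (SD, n = 3) against 136 ± 56.0. The log2 fold change was -3.38 ± 0.30 (SE, limma adjusted p = 0.000132), whereas that of RPLP0 was -0.67 (limma adjusted p = 0.00207). Per base of transcript, the pseudogene stood at 9.33%, 7.23% and 5.51% of the RPLP0 level in the Flag-IPs and at 0.903%, 0.870% and 1.65% in the HA-IPs.

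RPS3AP26, a copy of the gene for the small subunit protein RPS3A, was at 1195, 631 and 476 normalized counts in the Flag-IPs. In the HA-IPs it was at 21.2, 20.8 and 149.97. HA-IP replicate 3 lay well above the other HA-IPs and still below every Flag-IP. The log2 fold change was -4.09 ± 0.61 (SE, limma adjusted p = 0.00207), and it was between -5.02 and -3.62 with 1 library left out. RPS3A had a log2 fold change of -0.54 (limma adjusted p = 0.0251).

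RPL10P16 comes from RPL10, which encodes a large subunit protein that joins late in assembly. Its normalized counts were 529.9, 380.7 and 334 in the Flag-IPs, then 49.4, 35.7 and 110.3 in the HA-IPs. The groups were again apart, with a log2 fold change of -2.79 ± 0.33 (SE, limma adjusted p = 0.000564). Part of this pseudogene overlaps an exon of a gene on the same strand. RPL10 was not called, at -0.18.

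**Figure D2:**
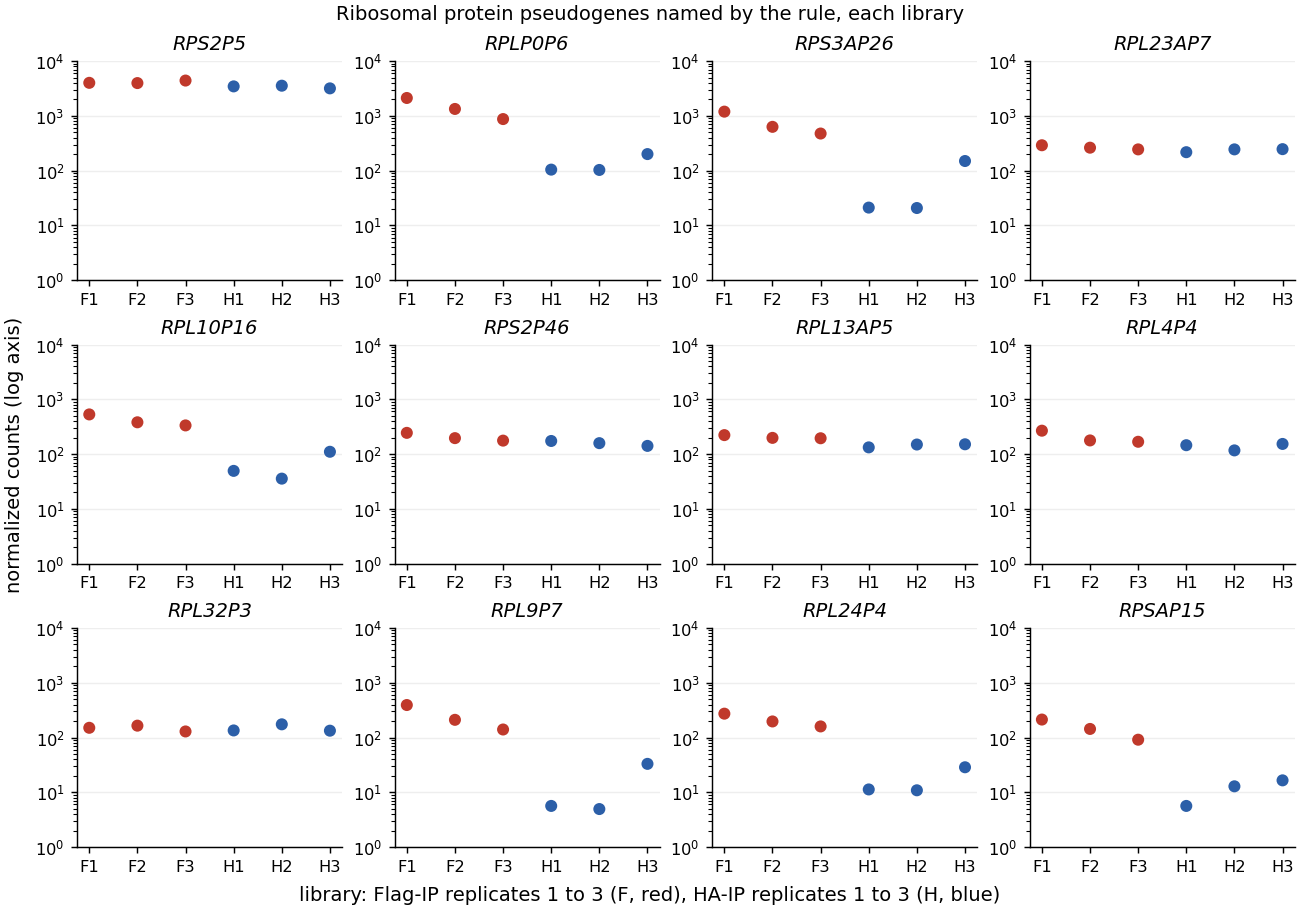
Normalized counts (y axis, log scale) of the 12 members named by a fixed rule, 1 point per library; Flag-IP replicates (F) are red and HA-IP replicates (H) blue. RPLP0P6, RPS3AP26, RPL10P16, RPL9P7, RPL24P4 and RPSAP15 drop between the groups, with HA-IP replicate 3 the highest HA-IP, whereas RPL32P3 stays between 129 and 174.

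Some smaller members had folds of similar size. RPL9P7, from the gene for the large subunit protein RPL9, was at 392.2, 210.5 and 140.2 normalized counts in the Flag-IPs, then 5.65, 4.95 and 33.1 in the HA-IPs, with a log2 fold change of -4.36 ± 0.58 (SE, limma adjusted p = 0.00117). RPL24P4, whose parent encodes a protein at the face between the subunits, was at 273, 197 and 159.6 in the Flag-IPs, then 11.3, 10.9 and 28.7 in the HA-IPs, with a log2 fold change of -3.66 ± 0.34 (SE, limma adjusted p = 0.000171). RPSAP15, a copy of the gene for the small subunit protein RPSA (also known as the laminin receptor), was at 213, 144 and 91.3 in the Flag-IPs, then 5.65, 12.9 and 16.5 in the HA-IPs, with a log2 fold change of -3.60 ± 0.39 (SE, limma adjusted p = 0.000395). In all of these the lowest Flag-IP was replicate 3 and the highest HA-IP was replicate 3.

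Other members with high levels had small fold changes. RPL13AP5 was at 222, 198 and 195 normalized counts in the Flag-IPs, then 133, 149.5 and 151 in the HA-IPs, a log2 fold change of -0.50 ± 0.12 (SE, limma adjusted p = 0.0239). Its parent RPL13A had nearly the same value, -0.51. The call for RPL13AP5 held in 1 of 6 fits that left out a library, the one without Flag-IP replicate 3, and it was lost with trends of GC content and length removed (limma adjusted p = 0.137).

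RPL23AP7, whose parent encodes a protein near the exit of the nascent chain, was at 291, 263 and 244 in the Flag-IPs, then 217, 245 and 247 in the HA-IPs. The groups overlapped and it was not called (log2 fold change -0.17, limma adjusted p = 0.373). RPL32P3 was at 151, 165 and 129 in the Flag-IPs, then 135, 174 and 133 in the HA-IPs, with a log2 fold change of -0.01 (limma adjusted p = 0.976). Both are unprocessed pseudogenes that overlap an exon of a long non-coding RNA. RPS2P46 and RPL4P4 had log2 fold changes of -0.37 and -0.54 and were not called (limma adjusted p = 0.129 and 0.0818). RPS19BP1, the protein-coding gene with a matching symbol, was at 1251, 1335 and 1301 in the Flag-IPs, then 1073, 1219 and 1365 in the HA-IPs, a log2 fold change of -0.09 that was not called (limma adjusted p = 0.512).

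Pseudogenes of one parent could share their call or differ in it. Of the 36 parents, 17 had more than 1 member. In 4 of these families all members were called higher in the Flag-IPs, 11 in number: 3 each of RPLP0, RPS3A and RPS27A, the last encoding a fusion of ubiquitin with a small subunit protein, and 2 of RPL24. Their log2 fold changes ran from -4.68 (RPL24P2) to -1.62 (RPLP0P2). Among them, RPLP0P4, RPS27AP20, RPS27AP5, RPL24P2 and RPS3AP21 had fewer than 10 reads in HA-IP replicates 1 and 2. These needed the Flag-IPs to pass the filter, so the counts by family depend in part on it. Of these 11, edgeR also called 11, whereas DESeq2 called 8, without RPL24P2, RPS27AP20 and RPS27AP5, and RPLP0P4 was lost with quantile normalization and with the replicate number as a block. In 7 families with 18 members 0 were called, among them those of RPL23A, RPL13, RPL7A, RPL3, RPL4 and RPL6. Of these 18, 3 had an unadjusted p under 0.05 in limma, edgeR called 0 and DESeq2 1, RPL4P4. The lowest log2 fold change in these was -0.81, of RPL23AP42. Another 6 families were mixed, with 13 of 26 members called: 4 of 5 for RPL7, 3 of 5 for RPL21, 2 of 4 for RPL17, 2 of 4 for RPSA, 1 of 2 for RPL9 and 1 of 6 for RPS2. Of the 19 parents with a single member, 9 had it called.

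The RPL9 pair shows how far members of a family could lie apart, and was chosen after its values were seen. RPL9P7 lies within an intron of APOO on the same strand and RPL9P8 within an intron of UBE2Q2P2 on the other strand. The stretches below lie at chrX:23836955-23837074 and chr15:82372523-82372642 (GRCh38, both minus strand), and the RPL9 bases in exons between positions 39456431 and 39457597 of chromosome 4 (minus strand). Capitals again mark differences from the parent mRNA.
RPL9: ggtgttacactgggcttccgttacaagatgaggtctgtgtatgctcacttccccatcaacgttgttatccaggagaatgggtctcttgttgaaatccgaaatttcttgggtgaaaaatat
RPL9P7: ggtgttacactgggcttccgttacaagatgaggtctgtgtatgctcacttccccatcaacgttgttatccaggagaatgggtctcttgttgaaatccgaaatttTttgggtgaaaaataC
RPL9P8: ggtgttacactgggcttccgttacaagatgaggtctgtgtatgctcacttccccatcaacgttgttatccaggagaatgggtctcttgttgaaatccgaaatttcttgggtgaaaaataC

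RPL9P7 differed from RPL9 at 2 of 580 aligned bases and RPL9P8 at 1 of 579, and all of these differences fall in the stretch shown. RPL9P8 was at 13.0, 27.6 and 11.99 normalized counts in the Flag-IPs, then 21.9, 12.9 and 25.4 in the HA-IPs, with overlapping groups and a log2 fold change of 0.23 (limma adjusted p = 0.775). RPL9P7 had -4.36, and RPL9 -0.46 (limma adjusted p = 0.0190). RPL21P16 and RPL36AP37 were 100% identical to the parent mRNA over the aligned bases, so no base told them from it, and both were called, at -2.28 and -1.28.

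Parent genes had smaller fold changes than most of their pseudogenes. Of the 36 parents, 17 were called higher in the Flag-IPs, then 0 in the HA-IPs, the median being -0.29 (log2) and the values running from -0.74 to 0.06. For 56 of 74 members the fold change was lower than that of the parent, and the median difference was -0.78. Members with few HA-IP reads passed the filter through the Flag-IPs, which was not so for the parents, so the 2 lists are not alike. Among the 39 members with at least 10 reads in every library the median difference was -0.23. The parent was called for 14 of the 33 called members and not for the other 19. Over the 74 members, which share the 6 libraries and in part their parents, Pearson's r between the fold changes of member and parent was 0.36 and Spearman's rho 0.35.

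**Figure D3:**
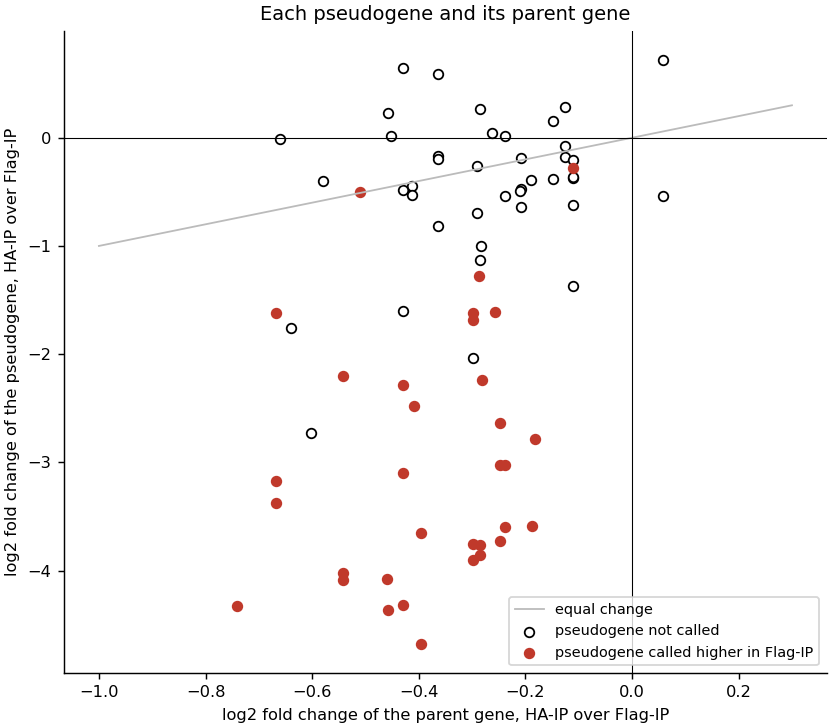
Log2 fold change of each pseudogene (y axis) against that of its parent gene (x axis), both HA-IP over Flag-IP; red points were called higher in the Flag-IPs, open circles were not called, and the grey line marks equal change. Parents lie between -0.74 and 0.06, while pseudogenes reach -4.68, and 56 of 74 lie below the line. Members that passed the filter through the Flag-IPs are included.

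The cytosolic ribosomal protein genes as a whole had 35 of 79 called higher in the Flag-IPs, then 0 in the HA-IPs, with a median log2 fold change of -0.36. The lowest was RPS12, a small subunit protein gene, at -1.12 (limma adjusted p = 0.0082), and the highest RPL4 at 0.06, which was not called. Processed pseudogenes of other genes had 149 of 408 called higher in the Flag-IPs (36.5%) and 0 in the HA-IPs, with a median of -0.59. A difference between these lists and the ribosomal protein pseudogenes was not tested.

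The 6 libraries were not 2 flat groups for the members. All Flag-IPs lay above all HA-IPs in 45 of 74 members (60.8%), against 16.1% of all genes. The share was 58.2% of the cytosolic ribosomal protein genes and 61.1% of the parents, close to that of the members. Members that passed the filter through the Flag-IPs are included in these counts. With at least 10 reads in every library, the share was 51.3% of 39 members and 15.2% of all such genes. Among the members, RPL23AP5 alone had every HA-IP above every Flag-IP. In 32 members (43.2%) the order was Flag-IP replicate 1, then 2, then 3, then HA-IP replicate 3, then the remaining HA-IPs. This order was chosen after it was seen. It was found in 3.78% of all genes, 39.2% of the cytosolic ribosomal protein genes and 41.7% of the parents. With at least 10 reads in every library, it was found in 33.3% of the members and 3.25% of all such genes. Among the 33 called members, Flag-IP replicates 1, 2 and 3 stood above the mean of HA-IP replicates 1 and 2 by a median of 4.50, 3.91 and 3.27 on the log2 scale. HA-IP replicate 3 stood above it by 1.42, and was above both other HA-IPs in 30 of 33. It was the highest HA-IP in 73.0% of the 74 members and 36.5% of all genes. The share was larger in the cytosolic ribosomal protein genes (94.9%) and in the parents (88.9%). In 14 members HA-IP replicates 1 and 2 each held 3 reads or fewer, which makes their fitted fold changes depend on the pseudocount. These could pass the filter only through the Flag-IPs, with or without HA-IP replicate 3, so the 11 calls among them are no separate result. The share called over all genes with as few reads in these 2 libraries was not counted.

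Summed over the 74 pseudogenes, the share of reads was 0.0458%, 0.0357% and 0.0312% in Flag-IP replicates 1 to 3, and 0.0174%, 0.0182% and 0.0195% in HA-IP replicates 1 to 3. The means were 0.0376% ± 0.0075 (SD, n = 3) and 0.0184% ± 0.0011, a ratio of 2.05. Without RPS2P5 the shares were 0.0325%, 0.0225% and 0.0169% in the Flag-IPs, then 0.00627%, 0.00696% and 0.00949% in the HA-IPs, a ratio of 3.16. The ribosomal protein genes held 2.502%, 2.21% and 2.12% of reads in the Flag-IPs, then 1.68%, 1.81% and 1.92% in the HA-IPs. The heart muscle markers given above had Flag-IP replicate 1 as their highest library and HA-IP replicate 3 as the highest of the HA-IPs, as did the pseudogenes without RPS2P5. The part of those markers' source in the pseudogene values was not tested.

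**Figure D4:**
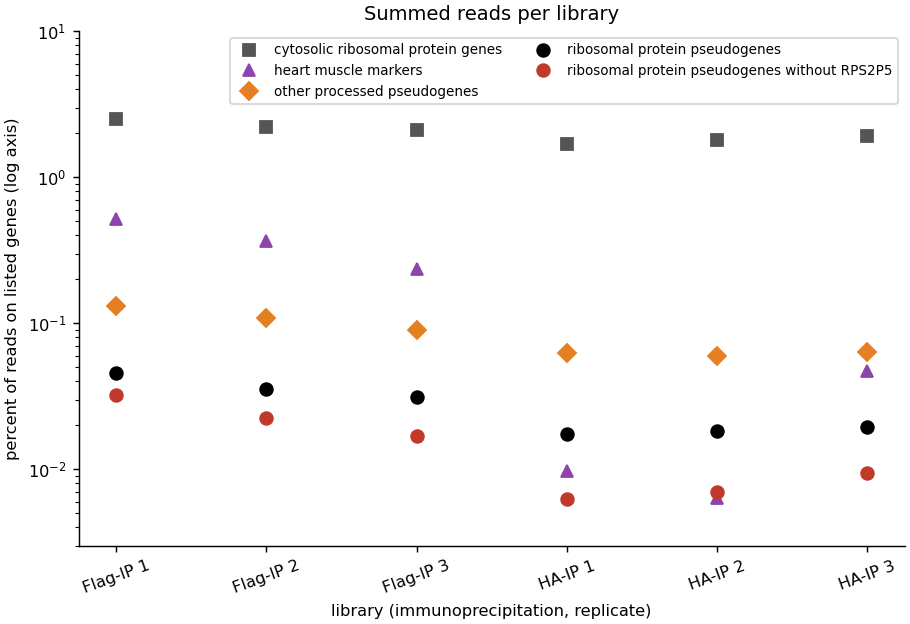
Summed reads as a percent of all reads on listed genes (y axis, log scale) in each library (x axis) for 5 gene lists, 1 point per library. Pseudogenes without RPS2P5 stand at 0.0325% in the highest Flag-IP, at 0.00627% in the lowest HA-IP and at 0.00949% in the highest, and the heart muscle markers at 0.515%, 0.00639% and 0.0475%.

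The calls were counted by GC content. Of 25 with a GC content under 45%, 18 were called and the median log2 fold change was -2.73, whereas 7.12% of all genes with such a GC content were called higher in the Flag-IPs. The counts were 4 of 14 at 45 to 50% GC, 7 of 22 at 50 to 55% and 4 of 13 at 55% or more, where the median was -0.37. Over all genes of these classes the shares were 7.82%, 6.85% and 6.92%. The 21 members with at least 10 reads in 1 or 2 HA-IPs had a median GC content of 43.96%. For the 10 with such reads in no HA-IP it was 46.98%, and for the 43 with them in all 3 HA-IPs 51.8%. Members of either smaller group needed the Flag-IPs to pass the filter, so calls under 45% GC depend in part on it. The shares over all genes are therefore not a like background. Pearson's r between fold change and GC content was 0.03 across the 16683 genes with an annotated GC content. It was 0.20 across the 408 processed pseudogenes of other genes and 0.20 across the 79 cytosolic ribosomal protein genes. Across the 74 members it was 0.41. Members of a family share their base composition, so these points are not independent, and a difference between the classes was not tested. With trends of GC content and length removed from each library, 31 of the 33 calls were kept, the exceptions being RPS2P5 and RPL13AP5.

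By identity to the parent mRNA, the calls were 12 of 20 at an identity of at least 99%, 10 of 18 at 97 to 99%, 9 of 20 at 93 to 97% and 2 of 16 under 93%. Pearson's r between fold change and identity was -0.31 over the 74 members. The reading frame of the parent was kept at its full number of codons in 27 members, of which 14 were called, against 19 of the other 47. Over all genes, 7.1% were called in this direction. The classes by identity and frame include members that passed the filter through the Flag-IPs, and a difference between them was not tested.

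**Figure D5:**
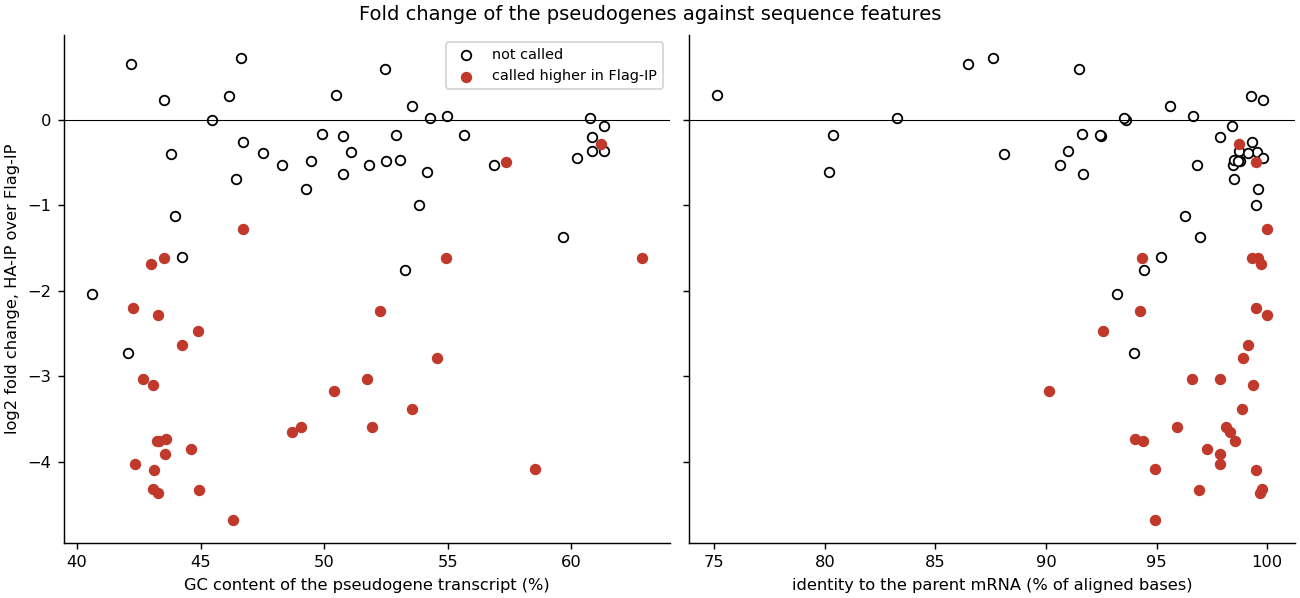
Log2 fold change of the 74 pseudogenes (y axis, HA-IP over Flag-IP) against GC content of the transcript (left) and identity to the parent mRNA (right); red points were called higher in the Flag-IPs and open circles were not. Under 45% GC 18 of 25 members are red, and under 93% identity 2 of 16 are. Members that passed the filter through the Flag-IPs are included.

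By position, 16 of 33 members that overlap no other gene were called, 14 of 28 within an intron of another gene, and 3 of 13 that overlap an exon. By subunit, 21 of 50 pseudogenes of large subunit proteins and 12 of 24 of small subunit proteins were called. These classes also include members that passed the filter through the Flag-IPs, and differences between them were not tested. By level, the 11 members whose mean reached 100 normalized counts held 7 calls, the 41 with a mean of 20 to 100 held 21, and the 22 with a mean under 20 held 5. Over all genes of these levels, 6.97%, 7.86% and 6.73% were called in the same direction.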

How the data were processed

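The deposited table holds 1 signal value per gene and library, a normalized read count (reads over a library size factor, by the authors), for 3 Flag-IPs and 3 HA-IPs. Per the methods and the submitters' processing notes, reads were trimmed with Trimmomatic 0.36, mapped to GRCh38 with STAR 2.5.2b and counted with featureCounts (Subread 1.5.2), genes with few reads were left out, and DESeq2 (given as 3.16) was applied. The table's columns of the authors' log2 fold change and adjusted p-value, as deposited, were not used. Whole reads were recovered from the smallest step of each library, and 100% of values came out whole within 0.001 of a read. Depth was 23174532 to 44134833 reads per library. For genes with many reads, precision is therefore set mostly by the spread between 3 replicates, whose smallest exact p is 0.1. Members with few reads are also limited by depth.

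Groups were compared with limma 3.58.1 (R 4.3.3), applied to log2(normalized count + 1) over all 16834 genes, with a variance trend and Benjamini-Hochberg adjustment, and a gene was called at an adjusted p of at most 0.05. Fold changes on this scale understate the change of genes with few reads. Parents were named by the symbol before P and its number. Annotation and transcripts came from GENCODE 44 (GRCh38), which held 99.1% of identifiers and all 74 members; each pseudogene was aligned to the mRNA of its parent with biopython 1.88, and printed bases were read from the genome. Some sequences and 1 family name are not reported here. The rule matched on symbols, and the members and lists were chosen with earlier results of these data known. Named are the 10 members with the highest means, the up to 8 lowest and 5 highest fold changes among called members with a mean of at least 100 and no overlap, the 3 smallest adjusted p-values in each direction, the 3 smallest changes at a mean of at least 100, and their parents. Other members were named after their values were seen. Alternatives were pseudocounts of 0.1 and 10, a mean of at least 50, equal totals, quantile normalization, no variance trend, the replicate block, each library left out, GC and length trends removed with splines, edgeR 4.0.16, DESeq2 1.42.0, and subsets of members. The fits were tested on simulated data.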

Additional observations from a re-analysis of the deposited data

How the results depend on the processing

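In each alternative tried, 0 members were called higher in the HA-IPs, and the median log2 fold change of the members stayed below 0. The 33 calls became 15 of 25 members whose mean was at least 50 normalized counts, 3 with no variance trend, 7 of 11 members with a mean of at least 100, and 12 of 39 with at least 10 reads in every library, the last added after seeing the data. Fewer members entered in 3 of these. With no variance trend, 1.08% of all genes were called higher in the Flag-IPs, and the cause of the drop was not tested. With 1 library left out the calls numbered 20 to 36, the median log2 fold change was -1.31 to -0.91, and the median difference from the parent was -0.98 to -0.64. Over all genes, 3.07% to 8.96% were called higher in the Flag-IPs in these fits. Calls numbered 33 and 35 with pseudocounts of 0.1 and 10, 35 with equal totals, 30 with quantile normalization, 31 without GC and length trends, 34 with edgeR and 29 with DESeq2. The shares of all genes called higher in the Flag-IPs under these settings were 6.02% to 9.36%.

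The median log2 fold change was -1.60 over processed pseudogenes outside other exons, -0.54 at a mean of at least 100 and -0.47 at 10 reads in every library. The median difference from the parent, -0.78, became -0.35 with a pseudocount of 10, -0.41 with quantile normalization, -1.11 over processed pseudogenes outside other exons and -0.23 at 10 reads in every library. The share of reads fell from 0.0376% to 0.0240% in the Flag-IPs and from 0.0184% to 0.00757% in the HA-IPs without RPS2P5, and was 0.0163% in the HA-IPs over processed pseudogenes outside other exons. With 1 library left out these shares were 0.0335% to 0.0408% and 0.0178% to 0.0189%.

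The replicate block gave 28 calls, all among the 33, where 5.41% of all genes were called higher in the Flag-IPs. Deviations of same-numbered libraries from the mean of their group correlated at -0.16, 0.03 and -0.31 across 13141 genes. Those of libraries with other numbers correlated at -0.24 to 0.30. Deviations from a mean of 3 libraries depend on each other, so these values cannot tell whether the numbers pair the libraries. Among values of named genes and their parents, 319 kept their side of the threshold, 44 lost the call and 5 gained one. In 9 of the 319 the sign differed, all uncalled values of RPL32P3, RPL23AP7, RPL4 or RPS2. Members with few reads in the HA-IPs are limited by depth, and their fold changes depend on the pseudocount.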

Other observations

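A further 21 genes have no symbol in the table but carry a GENCODE name of the same pattern. Of these, 9 were called higher in the Flag-IPs and 0 in the HA-IPs (limma, with 13 at an unadjusted p under 0.05), and their median log2 fold change was -1.52. With them and without RPS19BP1, 42 of 95 pseudogenes were called, an addition chosen after seeing the data.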
